A study of Mus musculus with 7 samples.

Results

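The genes described here encode the nuclear-encoded proteins of the mitochondrial respiratory chain and ATP synthase, complexes I to V. They were chosen by symbol from the table of counts, as every gene whose symbol begins with Nduf, Uqcr, Atp5 or Cox4 to Cox8, together with Sdha, Sdhb, Sdhc, Sdhd, Cyc1 and Cycs, leaving out pseudogenes marked "-ps". This gave 99 of the 26143 genes that carried a symbol, and 94 of them were among the 12759 genes with enough counts to test. Complex I held 40 of the 99 genes, its Ndufaf assembly factors 8, complex II 4, complex III 9, complex IV 20 and complex V 17, and cytochrome c was the remaining gene. Ndufa4 and Ndufa4l2 carry a complex I name but were counted with complex IV, where Ndufa4 is now placed. The rule uses symbols only and no measured value, though earlier results of these data were known when the genes were chosen.

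Complexes I and II feed electrons from NADH and succinate to coenzyme Q, complex III passes them to the small carrier cytochrome c, and complex IV hands them to oxygen. Complexes I, III and IV pump protons across the inner membrane, and complex V lets the protons back to make ATP. Each complex except II is built from subunits of both the nuclear and the mitochondrial genome, and alveolar macrophages, which live on the lipid-rich surface of the lung, are known for a metabolism that leans on oxidative phosphorylation.

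RNA of alveolar macrophages from C57BL/6 mice aged 4 months was sequenced in 4 wild-type (WT) libraries and 3 libraries lacking Cish (Cish KO). The labels say that the cells were sorted, and all groups share strain, age and cell type. Cish is a cytokine-induced inhibitor of receptor signalling of the SOCS family, and the series asks how its loss alters the gene expression of these cells. Separate mice per library, the number of KO lines and the exons removed are not stated in the labels. The p-values therefore rest on library-to-library spread, which may be technical.

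Counts of genes with a symbol summed to between 26676988 and 34347648 per library, and levels are given as CPM, each count as a share of its TMM-scaled library. Cish itself was at 46.3, 29.6, 38.1 and 67.9 CPM in WT 1 to 4 and at 12.9, 14.3 and 10.9 CPM in KO 1 to 3. Every KO library was thus below every WT library, with a log2 fold change of -1.84 (SE 0.26). The edgeR quasi-likelihood test, adjusted by Benjamini-Hochberg over all tested genes, gave 0.0519 for it and DESeq2 gave 2.99e-11. All 20 alveolar macrophage markers were expressed well enough to test, and their summed level ran from 32200 to 68500 CPM in WT and from 57500 to 90300 CPM in KO, most of it from Chil3. The list had no common direction, with 11 of the 20 above 0 in log2 fold change and 9 below. DESeq2 called 2 of them higher and 4 lower in KO, where it called 5.2% of all genes in either direction. At an unadjusted edgeR p under 0.05 there were 11 (55%), against 18% of tested genes. Of the other cell types, the haemoglobin-led list of 5 red cell genes summed to 13.6 to 348 CPM in WT and 285 to 856 CPM in KO, the T and NK cell list to 5.5 to 11.1 and 9.93 to 25.3 CPM, and the neutrophil list to 35.9 to 60.0 and 29.9 to 49.9 CPM, with Ly6g at 0 in all libraries. The endothelium and stroma list summed to 3.21 to 10.9 CPM in WT and 7.72 to 20.8 CPM in KO, with all 9 tested genes above 0 in log2 fold change and 3 of them called by DESeq2. The alveolar epithelium list had 8 of 10 above 0 but summed to 193 to 383 CPM in WT and 162 to 188 CPM in KO. Epcam weighed most in this sum, at a mean of 209 CPM in WT and 43.8 CPM in KO, whereas Sftpc was at 26.7 and 50.6 CPM. The part of these cell types in the differences given here was not tested. On the first principal component of all genes, which held 42.6% of the variance, the KO libraries ranged from 18.3 to 43.9 and WT 1 to WT 3 from -39.4 to -24.1, with WT 4 apart from both at 7.27. WT 4 also stood apart in the genes described here, and the medians of the complexes are given with and without it.

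The promoters of 4 genes the results turn on are shown first: the gene of the small cytochrome oxidase subunit Cox6b2 that differed most between genotypes, its abundant paralog Cox6b1, the complex I assembly factor Ndufaf1, and cytochrome c as a gene with the motifs long described for respiratory promoters. Each is the RefSeq window of GRCm38.p6, the assembly called mm10, from 250 bases before to 50 bases after the start, read 5′ to 3′ on the gene's strand. Capitals mark matches to 6 motifs searched on both strands: GCGCNTGCG for NRF1, CCGGAAG for ETS factors such as GABP, TGACGTCA for CREB (CRE), TNAAGGTCA for ERR, AANATGGCG for YY1, and GGGCGG, the GC box. All 4 genes lie on the minus strand.
Cox6b1, chr7:30626065-30626364: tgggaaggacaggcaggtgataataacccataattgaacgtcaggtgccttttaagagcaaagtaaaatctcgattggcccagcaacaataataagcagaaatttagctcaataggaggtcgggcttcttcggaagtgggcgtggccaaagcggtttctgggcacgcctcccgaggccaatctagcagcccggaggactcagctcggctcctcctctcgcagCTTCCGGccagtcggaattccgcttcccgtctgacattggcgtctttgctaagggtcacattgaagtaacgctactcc
Cox6b2, chr7:4753045-4753344: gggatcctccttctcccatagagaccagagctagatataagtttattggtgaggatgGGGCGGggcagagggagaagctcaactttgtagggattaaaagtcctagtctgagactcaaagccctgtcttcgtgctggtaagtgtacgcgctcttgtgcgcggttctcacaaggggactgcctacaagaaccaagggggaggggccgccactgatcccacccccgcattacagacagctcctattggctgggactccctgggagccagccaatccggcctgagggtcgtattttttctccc
Ndufaf1, chr2:119662785-119663084: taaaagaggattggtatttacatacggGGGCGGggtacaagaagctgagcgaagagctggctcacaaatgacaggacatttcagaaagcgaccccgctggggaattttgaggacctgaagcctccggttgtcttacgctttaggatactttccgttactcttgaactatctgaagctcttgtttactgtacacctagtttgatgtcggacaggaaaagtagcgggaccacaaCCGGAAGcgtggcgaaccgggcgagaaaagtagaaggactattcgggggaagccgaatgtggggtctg
Cycs, chr6:50566520-50566819: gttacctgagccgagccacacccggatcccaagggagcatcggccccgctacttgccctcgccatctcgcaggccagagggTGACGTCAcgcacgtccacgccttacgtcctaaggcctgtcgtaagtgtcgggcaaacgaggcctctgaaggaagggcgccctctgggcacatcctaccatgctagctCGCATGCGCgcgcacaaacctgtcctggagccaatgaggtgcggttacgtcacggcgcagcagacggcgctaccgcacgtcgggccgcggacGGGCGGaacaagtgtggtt

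In the Cycs window the capitals are, in order, the CRE, NRF1 and GC box matches. The Cox6b1 window held 1 ETS match and the Cox6b2 window 1 GC box, while the Ndufaf1 window held a GC box and an ETS match. RefSeq windows were matched for 77 of the 99 genes, with 82 windows in all, and motif matches overlapped each other in 1 of them. The NRF1 motif was in the promoters of 27 of the 77 genes (35.1%), against 15.5% of tested genes and 7.12% of all genes with a window of this length. For YY1 the share was 14.3% against 6.17% of tested genes, for the CRE 6.49% against 3.61% and for the ETS motif 24.7% against 20.9%, while for the ERR motif it was 3.9%, or 3 genes, against 0.863%. The GC box was in fewer of them, 45.5% against 67.4% of tested genes. These shares describe letters in a window and were not tested.

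Of the 94 tested genes 89 were at 10 CPM or more on average, and levels spanned wide ranges within a complex. Per kilobase of transcript, the median WT level was 205 CPM per kb for complex V, 192 for complex III, 115 for complex IV, 104 for complex II and 99.6 for complex I. The assembly factors were lower, at a median of 12.9 CPM per kb, and Cycs was at 37.3 CPM per kb. The highest single level was that of Cox6b1 at 657 CPM per kb, and Atp5b, the catalytic beta subunit of ATP synthase, reached 565. The order of the complexes in KO was the same, with medians of 214, 195, 124, 104 and 97.6 CPM per kb.

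**Figure D1:**
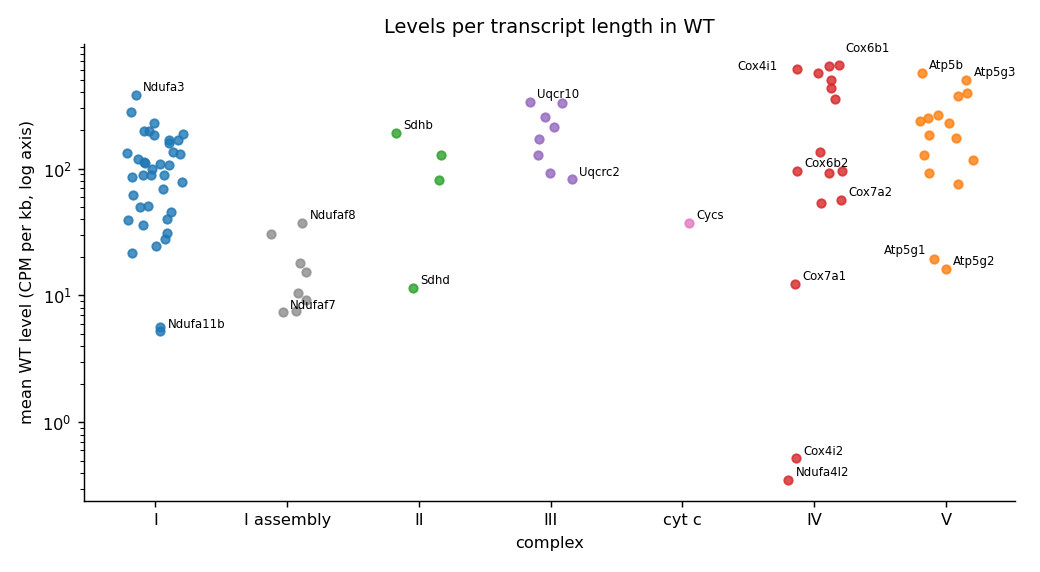
Mean WT level of the tested genes with a known transcript length, 1 not shown, in CPM per kilobase of transcript, on a log axis, by complex, with 1 point per gene and spread sideways only for legibility. Complex I runs from Ndufa11b at 5.23 to Ndufa3 at 380, and complex IV from Ndufa4l2 at 0.351 to Cox6b1 at 657 CPM per kb.

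The plot of levels by complex shows a few genes far below the rest. Sdhd, which anchors complex II in the membrane, was at 11.5 CPM per kb in WT, against 191 for its partner Sdhb. The 5 untested genes were complex III subunit Uqcr11, with at most 0.0777 CPM in any library, and the complex IV isoforms Cox6a2, Cox7b2, Cox8b and Cox8c, which are known from muscle or germ cells. Uqcr10 and Uqcrq, of the same complex as Uqcr11, were at 146 and 128 CPM in WT. Whether the annotation or the assignment of reads has a part in the near absence of Uqcr11 was not tested. Cox8c had no count in any library, Cox8b and Cox7b2 were at 0 in most, and Cox6a2 reached 0.99 CPM in KO 1. Near-identical copies may share reads, since the handling of reads with several matches is not given in the sources used here. Ndufb4, Ndufb4b and Ndufb4c were at 30.0, 38.1 and 34.7 CPM in WT, and their split is uncertain, as it is for Ndufs6 (48.3 CPM) with Ndufs6b (9.75 CPM) and Ndufa11 (74.1 CPM) with Ndufa11b (2.22 CPM).

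Between genotypes the respiratory chain genes differed little. None of the 94 tested genes passed an edgeR adjusted p of 0.05, against 11 of 12759 genes overall (0.0862%), and the smallest adjusted p among them was 0.095, that of Cox6b2. DESeq2 called 1 of them, Cox6b2, lower in KO, where it called 5.2% of all genes it tested, and 2.72% of all genes as lower. At an unadjusted edgeR p under 0.05 there were 3, Cox6b2, Ndufaf1 and Atp5d (3.19%), against 18% of tested genes. In 4 genes the CPM of the groups did not overlap, 1 higher and 3 lower in KO, against 16% of tested genes, of which 7.23% were higher and 8.72% lower.

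The direction was mostly upward by small amounts. The log2 fold change was above 0 for 78 of the 94 and below 0 for 16, with a median of 0.09, while 50.5% of all tested genes were above 0 with a median of 0.003. This split moved with the scaling and with 1 library on each side. With library sizes alone it was 58 to 36, with a median of 0.04 where that of all genes was -0.05, without KO 1 it was 52 to 42 with a median of 0.01, and without WT 4 it was 81 to 13 with a median of 0.15. In bulk RNA, fewer cells of a type and less RNA per cell cannot be told apart, and CPM shows only shares of the library. The genes together took 1.15% to 1.28% of the counts of the WT libraries and 1.19% to 1.35% of the KO libraries, so the ranges overlapped.

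The intervals of these differences mostly stayed within small folds either way. The 95% interval of the log2 fold change, without adjustment for the number of genes, lay within 1.5-fold either way for 89 of 94 genes (94.7%), against 57.8% of all tested genes. Among genes at 10 CPM or more the shares were 96.6% and 80.8%. It lay within 1.25-fold for 40 of the 94 (42.6%), against 21.2% of all tested genes. Among genes at 10 CPM or more these shares were 44.9% and 33.2%. Such shares depend on the size of the difference as well as on the spread between libraries. The spread itself was not smaller. At 10 CPM or more, the median SD as a percentage of the mean was 11.0% in WT and 9.21% in KO. For all tested genes at that level it was 9.61% and 8.85%.

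**Figure D2:**
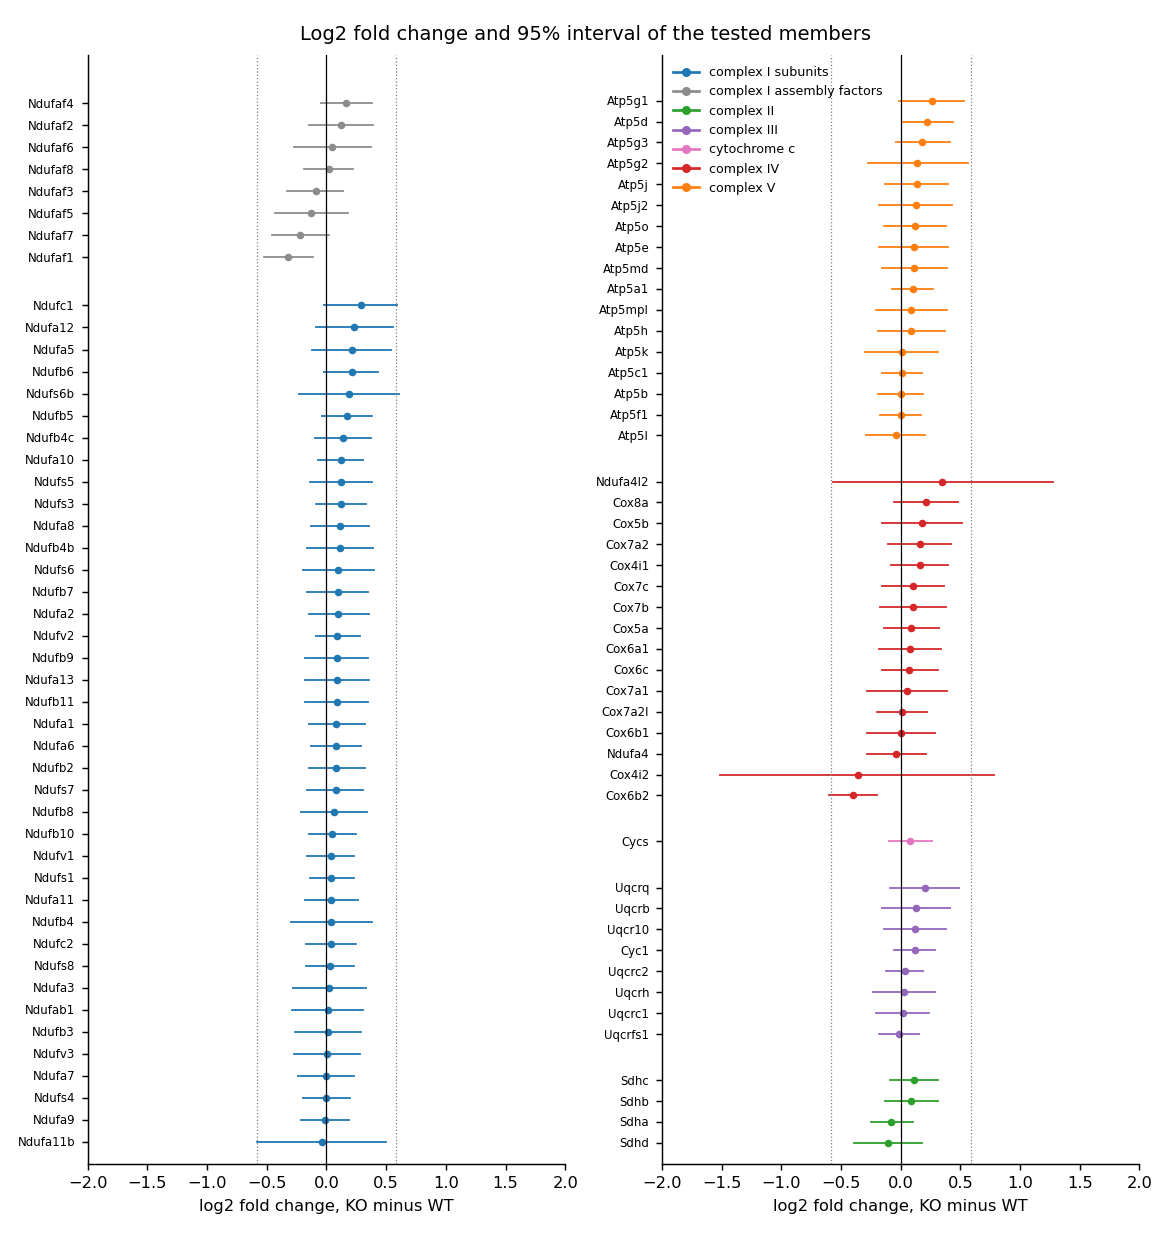
Log2 fold change (KO minus WT) of the tested genes, 1 not shown, with 95% intervals, grouped by complex, where the solid vertical line marks no difference and the dotted lines 1.5-fold either way. Most points sit slightly right of 0 and nearly all intervals cross it; Cox6b2 and Ndufaf1 lie to the left with intervals below 0, and Atp5d lies to the right with an interval just above 0.

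Complex I takes electrons from NADH through a flavin and a chain of iron-sulfur clusters held by its core subunits. Of its 40 tested genes, 35 had a log2 fold change above 0 and 5 below, and the groups overlapped in each. The median was 0.08, and it was 0.16 without WT 4 and 0.01 without KO 1. The core subunits named here lay between 0.03 for Ndufs8 and 0.12 for Ndufs3, the limits of their 95% intervals between -0.17 and 0.33, and their smallest edgeR adjusted p was 0.517. Ndufs1, which carries iron-sulfur clusters, was at 120 ± 9.0 CPM in WT (SD, n = 4) and 124 ± 4.68 CPM in KO (SD, n = 3), and Ndufv1, which binds the flavin, at 105 ± 8.18 and 107 ± 6.08 CPM. Ndufv2, Ndufs7 and Ndufs8 had log2 fold changes of 0.09, 0.08 and 0.03, each with overlapping groups.

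The supernumerary subunits of complex I surround the core and steady it. The smallest p-values were those of 2 small membrane-arm subunits. Ndufc1 was at 88.7, 78.7, 71.6 and 99.2 CPM in WT 1 to 4 and at 122, 93.2 and 94.6 CPM in KO 1 to 3, with a log2 fold change of 0.29 (edgeR adjusted p = 0.306, SE 0.14). Ndufb6 was at 110, 102, 96.6 and 117 CPM in WT and at 138, 114 and 117 CPM in KO, with 0.21 (edgeR adjusted p = 0.313, SE 0.10). In both genes KO 1 was the highest of the 7 libraries and WT 4 reached the level of the other KO libraries, so the groups overlapped. The exons of Ndufb6 overlap those of Smim27 on the opposite strand over 257 bases, and without strand the reads of such pairs cannot be told apart. Ndufa3, the most abundant complex I gene per kilobase, was at 164 ± 24.9 CPM in WT (SD, n = 4) and 167 ± 24.6 CPM in KO (SD, n = 3).

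The Ndufaf genes help to build complex I and are not part of the finished enzyme. They split evenly, with 4 log2 fold changes above 0 and 4 below and a median of -0.04, which became 0.02 without WT 4. In 2 of the 8 the groups did not overlap, and in both KO was lower, where 16% of all tested genes had separate groups and 8.72% were lower in KO. Ndufaf1, an early factor of the assembly of the membrane arm, stood at 28.2, 24.6, 26.7 and 24.6 CPM in WT 1 to 4 and at 20.2, 22.3 and 20.2 CPM in KO 1 to 3. The highest KO library was thus below the lowest WT library. The log2 fold change was -0.32 (SE 0.09, 95% interval -0.52 to -0.11), with an edgeR adjusted p of 0.141 and a DESeq2 adjusted p of 0.0744, so it did not pass either test. Leaving out 1 library at a time, it stayed between -0.37 and -0.27.

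Ndufaf7, a methyltransferase needed for complex I assembly, was at 15.6, 16.3, 15.9 and 17.7 CPM in WT and at 15.4, 13.8 and 13.1 CPM in KO. KO 1 came just below the lowest WT library, and the log2 fold change was -0.22 (SE 0.11, edgeR adjusted p = 0.317). Ndufaf4 pointed the other way, at 27.3 ± 1.84 CPM in WT (SD, n = 4) and 30.6 ± 2.82 CPM in KO (SD, n = 3), with a log2 fold change of 0.16 (edgeR adjusted p = 0.403). Its partner Ndufaf3 had one of -0.09 (edgeR adjusted p = 0.673). Ndufaf3 and the complex III gene Uqcrc1 lie 1.26 and 1.63 Mb from Cish on chromosome 9. No other of the 98 respiratory chain genes with a known position lies within 10 Mb of Cish. The distance to Cish was not examined for genes outside this set, such as those of the lists below.

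Complex II oxidises succinate and is the only complex with no subunit from the mitochondrial genome. Its 4 genes split evenly, with a median log2 fold change of 0.01, or 0.05 without WT 4 and -0.02 without KO 1. Sdha, the flavoprotein that oxidises succinate, was at 394, 373, 362 and 355 CPM in WT 1 to 4 and at 354, 367 and 334 CPM in KO 1 to 3, a log2 fold change of -0.08 (95% interval -0.25 to 0.10). The KO values reached from below the WT range into its middle. Sdhb, the iron-sulfur subunit, averaged 218 ± 15.3 CPM in WT (SD, n = 4) and 232 ± 24.7 CPM in KO (SD, n = 3), and the membrane anchors Sdhc and Sdhd had log2 fold changes of 0.11 and -0.11. The smallest edgeR adjusted p of the 4 was 0.545.

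Complex III moves electrons from coenzyme Q to cytochrome c. Of its 8 tested genes 7 had a log2 fold change above 0, the groups overlapped in each, and the median was 0.08, or 0.13 without WT 4 and 0.02 without KO 1. Uqcrc1 and Uqcrc2, the large core proteins, were at 284 ± 31.1 and 156 ± 4.85 CPM (SD, n = 4) in WT and at 288 ± 14.5 and 160 ± 2.05 CPM (SD, n = 3) in KO. Uqcrfs1, the Rieske iron-sulfur protein, stood at 173, 169, 175 and 176 CPM in WT 1 to 4 and at 163, 171 and 181 CPM in KO 1 to 3, with the WT values inside the KO range. Cyc1, the cytochrome c1 subunit, had a log2 fold change of 0.12 (edgeR adjusted p = 0.467, SE 0.08) and the small subunit Uqcrq one of 0.20 (SE 0.13, edgeR adjusted p = 0.449). Exons of Uqcrc2 overlap those of Pdzd9 on the opposite strand over 504 bases. Cytochrome c itself, Cycs, was at 110, 121, 117 and 118 CPM in WT and at 131, 124 and 115 CPM in KO, with a log2 difference of 0.08 (95% interval -0.10 to 0.26), with KO 3 inside the WT range.

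Complex IV holds the most paralogous isoforms, and it held the 1 gene that a test called. Cox6b subunits sit on the face of the enzyme that meets cytochrome c, and Cox6b2 is the isoform described mainly from testis. Cox6b2 (chromosome 7, 4751792 to 4753094, mm10) stood at 42.0, 41.0, 41.2 and 42.2 CPM in WT 1 to 4 and at 31.3, 28.4 and 35.0 CPM in KO 1 to 3. The 4 WT libraries differed by little more than 1 CPM, WT 4 included, and every KO library was below them. Behind these values were 1500, 1313, 1295 and 1349 reads in WT and 949, 730 and 951 in KO. The log2 fold change was -0.40 (SE 0.09, 95% interval -0.60 to -0.20), with an edgeR adjusted p of 0.095 and a DESeq2 adjusted p of 0.00675. Over the alternatives tried the fold change stayed between -0.48 and -0.33 and the adjusted p ran from 0.00675 to 0.396; edgeR called the gene without KO 3 (adjusted p = 0.0488), where it called 0.675% of all genes lower, and without WT 4 and KO 3 together (adjusted p = 0.0456), where it called 1.87% lower.

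Cox6b1, its paralog, did not share this pattern. It stood at 305, 304, 287 and 381 CPM in WT 1 to 4 and at 374, 290 and 298 CPM in KO 1 to 3, with WT 4 and KO 1 high and the others close together. Its log2 fold change was 0.0045 (SE 0.13, 95% interval -0.28 to 0.29), and it was below 0 by library sizes alone (-0.04). Cox6b2 thus made up 12.1%, 11.9%, 12.5% and 9.97% of the reads of the pair in WT 1 to 4 and 7.73%, 8.92% and 10.5% in KO 1 to 3. WT 4 fell within the KO range of this share, which moves with the Cox6b1 level of that library.

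**Figure D3:**
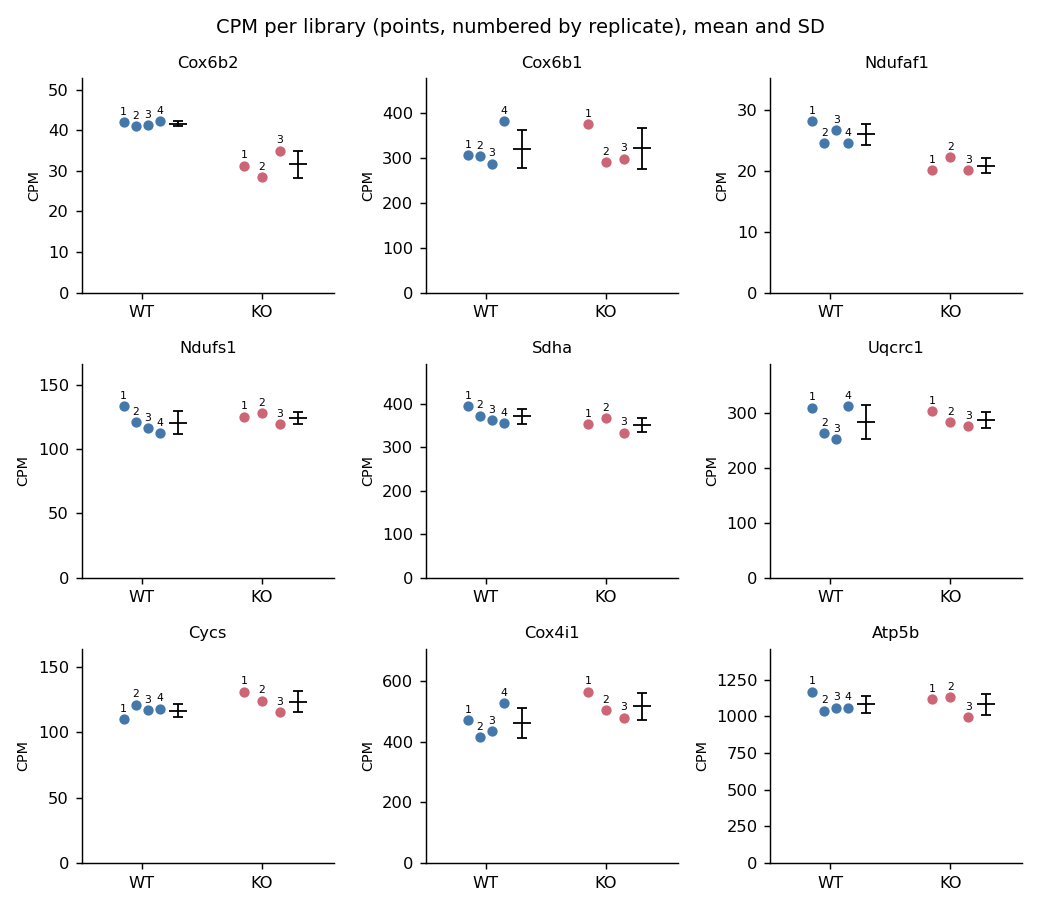
CPM of 9 genes in each library, with points numbered by replicate and the mean with SD beside them; every axis starts at 0. Cox6b2 and Ndufaf1 show KO points below all WT points, Cox6b1 and Cox4i1 show WT 4 and KO 1 above the rest of their groups, and in the other 5 genes the groups overlap.

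The other tested genes of complex IV above 1 CPM had log2 fold changes between -0.04 for Ndufa4 and 0.21 for Cox8a. Cox4i1, a nuclear-encoded subunit involved in regulation by ATP, was at 471, 415, 436 and 529 CPM in WT and 566, 504 and 480 CPM in KO. With 2 KO libraries inside the WT range, its log2 fold change was 0.16 (edgeR adjusted p = 0.454, SE 0.11). Cox5a and Cox5b had 0.09 and 0.18 with overlapping groups, and the edgeR adjusted p of Cox8a and Ndufa4 was 0.388 and 0.891. Over all 16 tested genes of complex IV, 13 were above 0 and 3 below, with a median of 0.08, or 0.17 without WT 4 and 0.02 without KO 1.

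Apart from Cox6b2, the complex IV isoforms known from other tissues or from low oxygen were scarce in both genotypes. Cox4i2, the lung and hypoxia isoform of subunit IV, was at 0.11 to 0.495 CPM over the 7 libraries, and Ndufa4l2, a hypoxia-induced paralog of Ndufa4, at 0.219 to 0.552 CPM. Neither range separated the groups. Cox7a1, the heart and muscle isoform, was at 5.39 ± 0.495 CPM in WT (SD, n = 4) and 5.59 ± 0.308 CPM in KO (SD, n = 3) and made up 11.6% to 13.6% of its reads with Cox7a2 in WT and 10.8% to 13.7% in KO. At the levels of Cox4i2 and Ndufa4l2 only large differences could be seen. The 95% interval for Cox4i2 ran from -1.51 to 0.78 and that for Ndufa4l2 from -0.57 to 1.28 on the log2 scale. For Cox7a1 it was narrower, from -0.28 to 0.39.

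Complex V, the ATP synthase, had a median of 0.11 with 16 of 17 genes above 0, and the median was 0.19 without WT 4 and -0.0012 without KO 1, with 8 genes above 0. The large subunits of its catalytic head were nearly level. Atp5b stood at 1170, 1040, 1060 and 1060 CPM in WT 1 to 4 and at 1120, 1130 and 998 CPM in KO 1 to 3, with a log2 fold change of 0.0013 (95% interval -0.19 to 0.19) that several alternatives turned below 0. Atp5a1, the alpha subunit, was at 675 ± 13.0 CPM in WT (SD, n = 4) and 721 ± 39.9 CPM in KO (SD, n = 3), and Atp5c1, the gamma subunit of the rotor, at 292 ± 11.8 and 294 ± 12.2 CPM. Atp5d, the delta subunit at the foot of the rotor, was at 93.1, 73.6, 89.0 and 89.6 CPM in WT and at 106, 99.1 and 97.0 CPM in KO. Every KO library was above every WT library, by a log2 fold change of 0.22 (SE 0.10, 95% interval 0.01 to 0.44), with edgeR and DESeq2 adjusted p of 0.264 and 0.273.

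Atp5g1, Atp5g2 and Atp5g3 encode the same mature c subunit of the proton-driven ring with different import sequences. Atp5g3 supplied most of their reads, with 85.1% to 86.0% in WT and 84.3% to 86.3% in KO, and Atp5g1 and Atp5g2 gave 12.3% and 2.25% in WT and 12.9% and 2.17% in KO. Atp5g1 was at 52.8, 51.2, 46.0 and 57.0 CPM in WT and at 73.0, 53.0 and 59.9 CPM in KO, with a log2 difference of 0.26 (SE 0.12, edgeR adjusted p = 0.292). KO 2 lay inside the WT range. Atp5g3 and Atp5g2 had log2 fold changes of 0.18 and 0.14 with overlapping groups.

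Across libraries the genes were high or low together, within as well as between genotypes. Their mean log2 CPM was 6.16, 6.08, 6.05 and 6.31 in WT 1 to 4 and 6.34, 6.15 and 6.15 in KO 1 to 3. The group means of 6.15 ± 0.12 (SD, n = 4) and 6.22 ± 0.11 (SD, n = 3) differed by less than the SD of either group. WT 4 was the highest WT library for 72 of the 94 genes and KO 1 the highest KO library for 75, while WT 3 was the lowest of all 7 for 43 and WT 2 for 26. Complexes I, III, IV and V shared this pattern, with mean deviations of 0.12 to 0.16 in WT 4 and 0.15 to 0.23 in KO 1, relative to each gene's mean over the libraries on the log2 scale. Complex II deviated by 0.10 in WT 4 and 0.08 in KO 1, also its highest libraries. Cycs deviated by -0.01 in WT 4 and 0.14 in KO 1, and the assembly factors by 0.08 and -0.02.

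**Figure D4:**
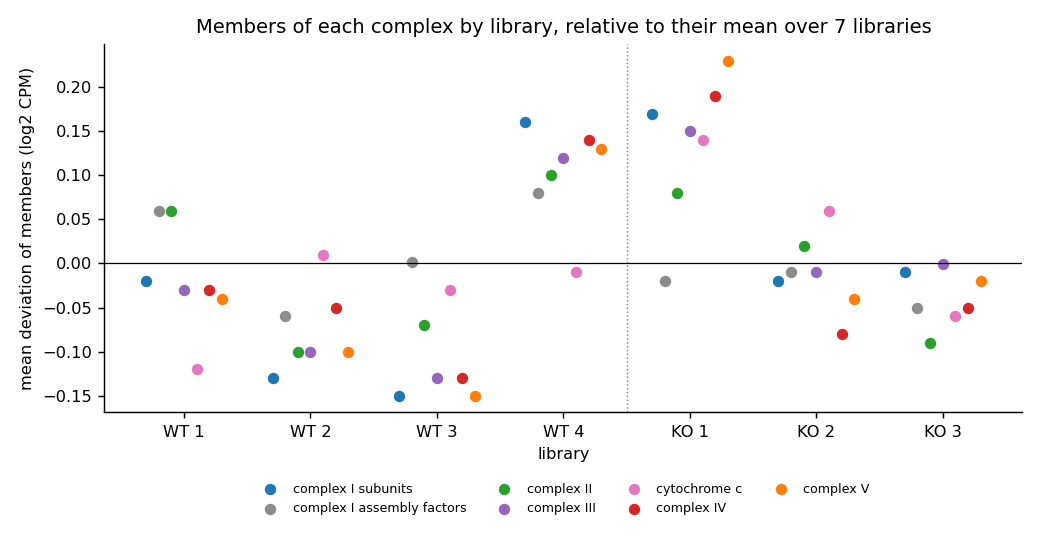
Mean deviation of the tested genes of each complex in each library, in log2 CPM relative to each gene's mean over the 7 libraries, with 1 point per complex set slightly sideways for legibility. WT 4 and KO 1 are the high libraries for complexes I, III, IV and V, and WT 3 is the lowest. They are also the high libraries for complex II, by less, and there WT 2 is the lowest.

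Respiratory subunits are mostly small proteins, and the same libraries stood out in other genes with short transcripts. Structural subunits with transcripts of up to 737 bases, their median length, deviated by 0.18 in WT 4 and 0.22 in KO 1, and the longer ones by 0.09 and 0.14. All 430 tested genes of that length or less at 10 CPM or more deviated by 0.15 in WT 4 and 0.12 in KO 1. The 7603 longer ones deviated by -0.01 and -0.02. Both sets include the respiratory subunits at that level, so they are not separate from them. The 82 cytosolic ribosomal protein genes, another set of short transcripts, deviated by 0.11 and 0.22 and had a median log2 fold change of 0.11 between genotypes, with 1 called by edgeR (Rpl29, lower in KO, adjusted p = 6.83e-06). The 78 mitochondrial ribosomal protein genes deviated by 0.11 in WT 4 and 0.02 in KO 1, and their median difference between genotypes was 0.01 on the log2 scale. Whether transcript length or RNA quality has a part in the pattern was not tested.

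**Figure D5:**
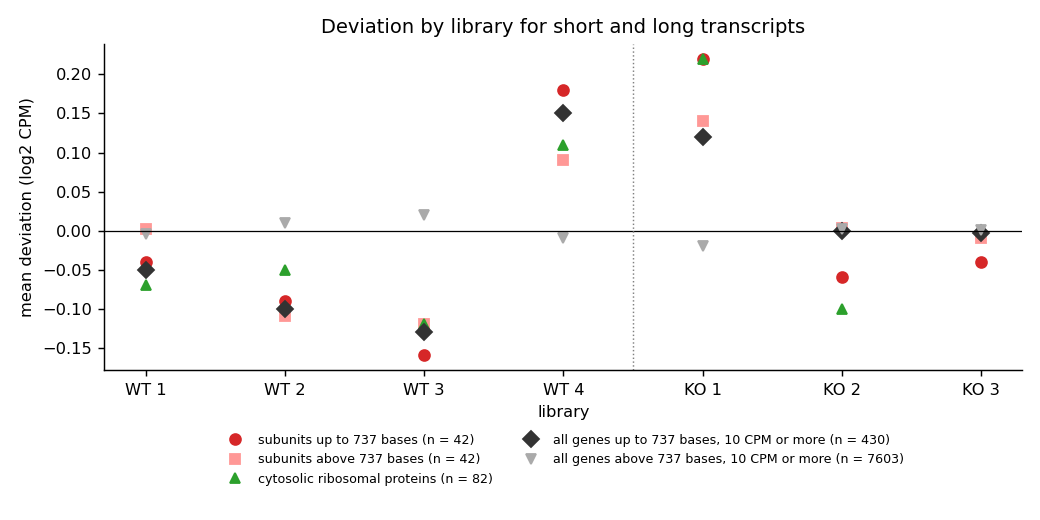
Mean deviation in log2 CPM by library for short (up to 737 bases) and long structural subunits, for all short and long genes at 10 CPM or more, and for cytosolic ribosomal protein genes, with 1 point per set and library. WT 4 and KO 1 are high for short transcripts of every kind shown. They are also high for the long subunits, though less so than for the short subunits. The set of all long genes at 10 CPM or more stays near 0 in each library.

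The mitochondrial genome supplies the 13 remaining subunits of complexes I, III, IV and V. All 13 had log2 fold changes above 0, from 0.04 for ND1 to 0.35 for ND4L with a median of 0.23, and the direction of ND1 reversed by library sizes alone (-0.01). None passed the edgeR test at an adjusted (smallest 0.323) or unadjusted p under 0.05, DESeq2 called 0, and none had separate groups. Their summed level was 5423, 6450, 6869 and 7915 CPM in WT 1 to 4 and 8531, 6175 and 8293 CPM in KO 1 to 3, so KO 2 was inside the WT range. Set against the summed nuclear-encoded subunits this was a ratio of 0.557 ± 0.0753 for WT (SD, n = 4) and 0.61 ± 0.0969 for KO (SD, n = 3), a difference smaller than either SD.

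Other genes of mitochondrial respiration were followed as lists, and edgeR called none of their 252 tested genes. DESeq2 called 5 of 256 (1.95%), against 5.2% of all genes it tested. Of 50 tested assembly factors outside the Ndufaf family 21 were above 0 and 29 below, with a median of -0.02, and 7 (14%) had an unadjusted edgeR p under 0.05, against 18% of all tested genes. Cox10, which makes the haem A of complex IV, was at 18.8, 16.3, 15.7 and 18.9 CPM in WT and 26.7, 24.5 and 19.5 CPM in KO, with a log2 difference of 0.44 (edgeR adjusted p = 0.146), with KO 3 just above the WT range. Uqcc1, an assembly factor of complex III, had one of -0.28 with overlapping groups. Among 24 regulators of mitochondrial gene expression 10 were above 0 and 14 below, with 1 of the 24 (4.17%) at an unadjusted p under 0.05. Gabpb1, a subunit of the factor GABP that binds the ETS motif, was at 29.6 ± 2.27 CPM in WT (SD, n = 4) and 23.2 ± 2.68 CPM in KO (SD, n = 3), with separate groups, a log2 fold change of -0.35 and an edgeR adjusted p of 0.151. Nrf1, whose product binds the NRF1 motif, had -0.20 with overlapping groups.

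The steps that feed the chain also split evenly. Tricarboxylic acid cycle and pyruvate entry genes were above 0 in 12 of 24 cases, and 5 (20.8%) had an unadjusted p under 0.05, against the same 18%. Mpc1, a subunit of the mitochondrial pyruvate carrier, was at 155, 122, 110 and 156 CPM in WT and 255, 212 and 161 CPM in KO, with KO 3 only slightly above the highest WT libraries. Its log2 fold change of 0.62 (SE 0.17) had an edgeR adjusted p of 0.13 and a DESeq2 adjusted p of 0.0163. Idh3b, a subunit of isocitrate dehydrogenase, had 0.29 with separate groups (edgeR adjusted p = 0.141). Of 8 genes that pass electrons to coenzyme Q from other sources 4 were above 0, and 1 (12.5%) had an unadjusted p under 0.05. Sqor, the sulfide oxidising enzyme, was at 99.1, 99.9, 90.5 and 97.6 CPM in WT and 74.7, 80.2 and 78.4 CPM in KO, with a clear gap between the groups, a log2 fold change of -0.32 (SE 0.07), an edgeR adjusted p of 0.0996 and a DESeq2 adjusted p of 0.0108.

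In the other lists, unadjusted p-values under 0.05 numbered 1 in coenzyme Q synthesis (7.69%), 3 among carriers (18.8%), 2 in import (8.33%), 3 among mitochondrial ribosomal proteins (3.85%) and 2 in the hypoxia and glycolysis list (13.3%), against 18% of all tested genes. Of 13 genes of coenzyme Q synthesis 4 were above 0 and 9 below, with -0.35 for the kinase-like Coq8b and 0.28 for the hydroxylase Coq7. Of 16 carriers and uncoupling proteins 6 were above 0, with -0.21 for the carnitine carrier Slc25a20 and 0.20 for the citrate carrier Slc25a1, both with separate groups. Of 24 import genes 11 were above 0. Tomm34, a cytosolic helper of import, had a log2 fold change of -0.31 (edgeR adjusted p = 0.126, DESeq2 adjusted p = 0.0345) and Timm21, part of the inner membrane translocase, one of -0.25. Among the mitochondrial ribosomal proteins 43 of 78 were above 0, led by Mrps28 at 0.37 and Mrpl41 at 0.29. Of 15 tested genes of the hypoxia response and glycolysis 7 were above 0. Bnip3, a mitophagy receptor, was at 32.8 ± 5.09 CPM in WT (SD, n = 4) and 22.6 ± 3.82 CPM in KO (SD, n = 3), with a log2 difference of -0.53 (DESeq2 adjusted p = 0.0308). Vegfa pointed the other way at 3.74 ± 0.863 and 6.12 ± 1.14 CPM, with 0.71 (DESeq2 adjusted p = 0.0494), and edgeR adjusted p for these 2 genes was 0.133 and 0.154.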

How the data were processed

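The authors deposited raw read counts per gene symbol, made with rsubread per the file headers. The submitters' processing notes name mm10 and DESeq2, and for annotation and reads with several matches nothing is given in the sources used here. Per the labels, libraries were made with Nextera XT, which does not mark strand. Of 27179 listed genes, 1036 without a symbol (0.376% to 0.424% of counts) were left out. No molecular identifiers are named, so reads copied from 1 molecule cannot be told apart.

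The main analysis used edgeR 4.0.16 in R 4.3.3: filterByExpr, TMM factors and the quasi-likelihood F test on genotype over all 12759 genes, 4 WT against 3 KO libraries, with 5 residual degrees of freedom and Benjamini-Hochberg adjustment, called below 0.05. Intervals are the coefficient ± t × SE. Log2 CPM used a prior count of 2. Alternatives were DESeq2 1.42.0, limma 3.58.1 voom with quality weights, other scalings and filters, the replicate number as a block, and libraries left out. Transcript lengths are medians from GENCODE M21 (97 of 99 genes) and gene positions are from RefSeq (98 of 99). Scripts were tested on simulated data.

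The genes and lists were chosen with earlier results of these data known. Named were the core or main nuclear subunits and, in each complex, the 2 smallest p and the most abundant gene. Also named were genes called by either tool, the isoforms, Cish, and in each pathway list the called genes or the 2 smallest p. Other names (Cox6b1, Ndufa4, Ndufaf3, the copies that may share reads, Cox7a2 and the ends of ranges) were chosen after their values were seen. The values of 1 complex I gene are not reported here, though it is included in the counts and medians.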

Additional observations from a re-analysis of the deposited data

Results flagged for a closer look

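Cox5a, a nuclear-encoded subunit of complex IV, had 1 WT library far from the other 3. WT 4 was at 486 CPM and the nearest library at 400 CPM, a gap of 0.916 of the whole WT range, above Dixon's 95% critical value for 4 samples. Mrps28, a mitochondrial ribosomal protein, had WT 1 at 31.2 CPM and the nearest library at 26.7 CPM, a gap of 0.862 of its range. Of 83 groups of 4 examined this way 2 stood out, where chance alone marks about 1 in 20. WT 4 was also the highest WT library for 72 of the 94 tested respiratory chain genes.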

How the results depend on the processing

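The number of genes called over the whole table depended strongly on the settings: 11 by edgeR, 730 by DESeq2, 397 with no filter, 21 at 5 CPM or more in 3 libraries, 46 by voom, 7 to 284 with 1 library left out (284 without WT 4, 217 without KO 3), and, in alternatives added after seeing the data, 590 without WT 4 and KO 3 together and 24 without WT 4 and KO 1 together. Of the respiratory chain genes and of the isoforms among them 0 were called by edgeR and 1, Cox6b2, by DESeq2, without WT 4 and KO 3 together (log2 fold change -0.47) and in the range of 0 to 1 over single libraries left out. The pathway lists had 0 calls by edgeR, 5 by DESeq2, 1 with no filter, 4 without WT 4 and KO 3 together and 0 with any single library left out. The median log2 fold change of the complex I assembly factors ran from -0.08 to 0.02 with 1 library left out and was 0.02 without WT 4 and either KO library together, and that of complex II was 0.10 without WT 4 and KO 3. Cish passed the threshold by DESeq2 (-1.85), library sizes alone (-1.88), no filter (-1.85), the stricter filter (-1.82), voom (-1.70) and without WT 4 and KO 3 (-1.48), and ran from -2.00 to -1.58 with 1 library left out. The labels do not say whether the replicate numbers pair the libraries. Correlations of same-numbered deviations were -0.00828, 0.142 and -0.0173, which does not settle it. WT 4 has no KO library of its number, so in a replicate block it does not inform the genotype difference. With a replicate block, 430 genes were called, 0 respiratory chain genes and 2 pathway genes, the median of the assembly factors was 0.02, and the log2 fold change was -1.57 for Cish and -0.01 for Atp5b.

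Genes near 0 changed sign. With library sizes alone the log2 fold change was -0.05 for Atp5b, -0.04 for Atp5c1 and Cox6b1, -0.03 for Uqcrc1, -0.02 for Ndufa3 and Ndufs8, and -0.01 for Ndufs1, Ndufv1, Uqcrc2 and ND1. With no filter it was -0.01 for Atp5b and Cox6b1 and -0.0034 for Atp5c1, and by DESeq2 -0.0029 for Atp5b and -0.00052 for Cox6b1. The stricter filter gave 0.01 for Uqcrfs1. Without WT 4 and KO 1 it was -0.03 for Atp5b, -0.02 for Cox6b1, -0.0043 for Ndufv1, 0.01 for Ndufaf3 and 0.03 for Uqcrfs1, and without WT 4 and KO 3 0.02 for Cox4i2, -0.04 for Ndufa4l2 and 0.08 for Ndufa4. With 1 library left out the ranges were -0.03 to 0.06 for Atp5b, -0.01 to 0.05 for Atp5c1, -0.05 to 0.26 for Atp5g2, -0.99 to 0.02 for Cox4i2, -0.12 to 0.10 for Cox6b1, -0.11 to 0.13 for Ndufa3, -0.13 to 0.06 for Ndufa4, -0.03 to 0.10 for Ndufs8, -0.0027 to 0.09 for Ndufv1, -0.03 to 0.07 for Uqcrc1, -0.05 to 0.02 for Uqcrfs1 and -0.05 to 0.16 for ND1. With library sizes alone the scaling was the only change. The median of all tested genes then moved from 0.003 to -0.05 and that of the respiratory chain genes from 0.09 to 0.04. Apart from the scaling and the numbers of genes tested and libraries used, the cause of the shifts was not tested. Cox6b2, Ndufaf1 and Atp5d kept their direction in every setting tried. Their groups did not overlap, so leaving libraries out could hardly have reversed it and adds no support. Low counts limited Cox4i2 and Ndufa4l2, which were below 1 CPM, and the 5 untested genes had too few counts for a test.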
